A study of Sus scrofa with 12 samples.

Results

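The antioxidant enzymes that use glutathione, thioredoxin or a metal centre to clear peroxides and superoxide were examined in whole left ovaries of 12 gilts, which are young sows (Sus scrofa), all from a line of French Yorkshire pigs. Members were the rows of the expression table named for a glutathione peroxidase (GPX), peroxiredoxin (PRDX), glutathione transferase (GST or MGST), superoxide dismutase (SOD), thioredoxin or thioredoxin reductase, an enzyme of glutathione synthesis or reduction, catalase, NQO1, a heme oxygenase or sulfiredoxin. The pattern found 33 symbols, and 31 of them had a mean FPKM (fragment counts scaled to transcript length and library size) of at least 0.5. These 31 genes are described here, out of 20421 loci tested and 29150 loci in the table. MGST2, with a mean FPKM of 0.44, and GPX6, with 0.050, lay under the minimum, and the lowest gene above it was GPX4 with 1.04. Catalase, PRDX2 and the omega transferases stand only in rows joined with a neighbouring gene, and were not analysed here. No row matched for thioredoxin (TXN), PRDX1, HMOX1 or GSTP1 either, so these were not measured.

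Among these, 6 gilts (ES) had shown estrus in consecutive cycles and were slaughtered at the third estrus. The other 6 (NES) were full sisters of ES gilts and had no estrus on record, with detection begun at 165 days of age. Litters with both kinds of gilt supplied the animals, no treatment is stated, and 1 ovary of 1 gilt made each library. No source used here gives the stage of the cycle in NES gilts. Total RNA depleted of ribosomal RNA was sequenced from whole ovaries, so fewer cells of a type and less RNA per cell cannot be told apart in any value below.

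Glutathione peroxidases and peroxiredoxins reduce hydrogen peroxide and lipid peroxides, glutathione peroxidases with glutathione and most peroxiredoxins with thioredoxin. Superoxide dismutases form the hydrogen peroxide that these enzymes clear, and glutathione transferases couple glutathione to reactive lipids and steroids. Many of the genes are targets of the transcription factor NRF2. In the ovary, steroid synthesis in mitochondria is a source of oxidants, and granulosa and luteal cells are known for high levels of several of these enzymes.

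Counts summed to 58140547 to 68961955 per library. The ovarian genes STAR, FSHR, FOXL2, INHA and GDF9 were detected in all 12 libraries. Among the marker lists, only those of granulosa and proliferating cells held genes called lower in ES, and none held a gene called higher. All 4 measured oocyte markers had negative differences without a call. Besides the lists given next, the smooth muscle, stroma, endothelium and oocyte sums were highest in ES1, and the lymphocyte sum in ES3. All 10 measured macrophage and monocyte markers (of 11 listed) were highest in ES3, where they summed to 1137 CPM (counts scaled to a common library size), against 93.7 to 158 CPM in the other ES libraries and 70.6 to 197 CPM in the NES libraries. All 5 measured markers of surface and ciliated epithelium (of 8) were highest in ES6, with a sum of 232 CPM, against 9.34 to 15.9 CPM in the other ES and 3.06 to 17.3 CPM in the NES libraries. In that list the ciliary factor FOXJ1 had 0 counts in ES2, ES5 and NES5, and the junction gene CLDN4 in NES3. The 8 measured luteal and steroidogenic markers (of 10) summed to 652 to 8631 CPM in ES, highest in ES1 and next in ES6 with 5490 CPM, and to 670.1 to 1715 CPM in NES sisters. INHA held the largest part of the sum in ES1 (3553 CPM). Of the 8 genes, 5 were highest in ES1, 2 in ES6 and 1, PTGFR, in ES3 (181 CPM). The 10 granulosa markers summed to 433 to 2796 CPM in ES, lowest in ES4 and ES3, and to 901 to 2960 CPM in NES sisters. Within that list 5 genes were higher and 5 lower, with IHH called lower (0.742 to 14.6 CPM in ES, 24.9 to 128 CPM in NES, edgeR adjusted p = 0.0420). FST had 5.78 to 39.4 CPM in ES and 57.4 to 218 CPM in NES (edgeR adjusted p = 0.0519). All 4 measured markers of proliferating cells (of 5) were called lower in ES (median log2 -1.92), with sums of 23.4 to 69.3 CPM in ES and 63.1 to 292 CPM in NES. Of all tested loci, 0.793% were called lower. With library number as a block, none of the 4 was called. The same held without ES2, ES4, ES6 or any 1 of NES1 to NES5. No granulosa marker was called in these fits. All 4 proliferation markers kept an unadjusted edgeR p under 0.05 in them. The part of these cell types in any result below was not tested.

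**Figure D1:**
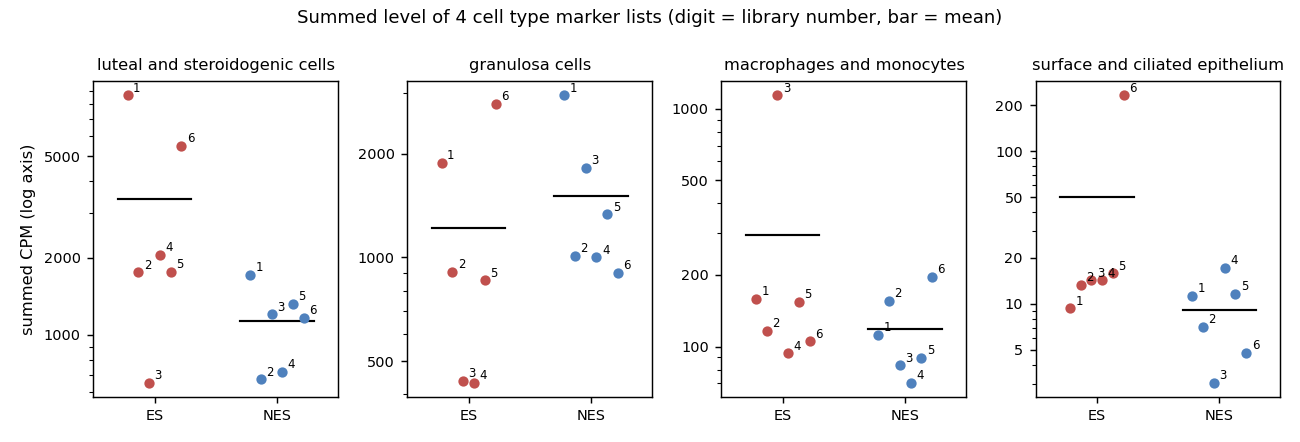
Summed CPM (log axis) of the markers of 4 cell types in each library, with ES left of NES; each point is a library with its number and the bar is the group mean. ES1 leads the luteal sum (8631 CPM), ES3 the macrophage sum (1137 CPM) and ES6 the epithelial sum (232 CPM), and ES3 has the lowest luteal sum (652 CPM).

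Compared per length, GPX3, the secreted glutathione peroxidase, was the most abundant of the 31 genes, with 327 ± 317 FPKM in ES gilts and 109 ± 42.9 FPKM in NES sisters (SD, n = 6 each). It held 11.8 to 72.3% of the summed FPKM of all 31 genes in ES libraries and 19.7 to 40.5% in NES libraries. GPX1, the peroxidase of the cytosol and mitochondria, followed with 62.8 ± 61.7 FPKM in ES gilts and 31.9 ± 12.0 FPKM in NES sisters. Next came the mitochondrial peroxiredoxin PRDX3, with 44.1 ± 15.1 FPKM in ES gilts and 39.1 ± 8.81 FPKM in NES sisters, and GSTA4, the transferase that takes lipid aldehydes, with 32.6 ± 12.4 FPKM in ES gilts and 46.1 ± 13.5 FPKM in NES sisters. GPX1, PRDX3 and GSTA4 overlapped in both groups, so their order is within the spread between ovaries. GCLC (13.5 ± 12.4 FPKM in ES, 23.2 ± 9.75 FPKM in NES sisters) and MGST1 (15.4 ± 14.8 FPKM in ES, 9.95 ± 4.22 FPKM in NES sisters) came after these. The remaining 25 genes had mean levels of 1.04 to 7.80 FPKM, closely spaced beside their spread. Of the 31 genes, 12 are overlapped by a row on the opposite strand, and no source used here gives the strand setting of the counting. The levels of GPX4 and SOD1 are most uncertain for this reason, since SBNO2 opposite GPX4 had 28.5 times its count and SCAF4 opposite SOD1 had 16.0 times. The same limit holds for GSS, GSTZ1, PRDX5, TXNRD2 and HMOX2. Their counts were 0.15, 0.17, 0.18, 0.32 and 0.59 times that of the opposite row.

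**Figure D2:**
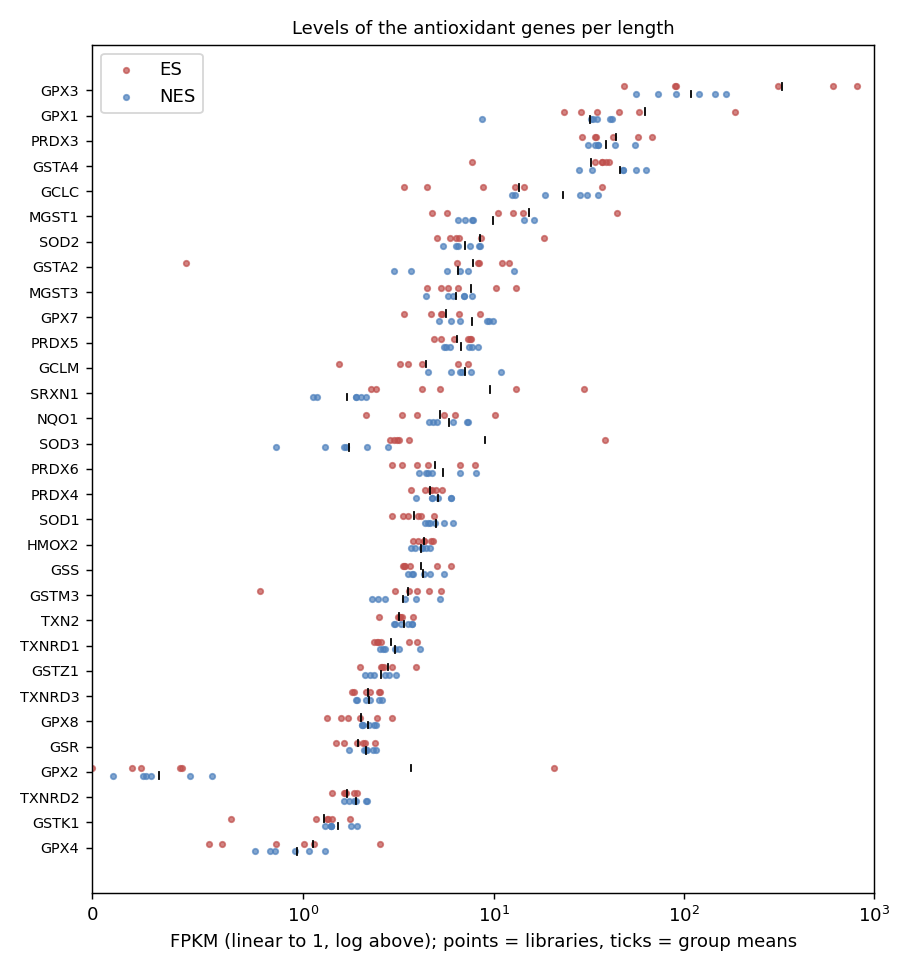
FPKM of the 31 antioxidant genes in each library, ordered by mean level (axis linear to 1, log above); ES points lie above NES points for each gene and the tick is the group mean. GPX3 (327 FPKM in ES, 109 FPKM in NES sisters) stands at the top and GPX4 at the bottom, and GPX2 has 1 ES library (ES6) far from the rest.

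The comparison of ES with NES asks how the ovary of a gilt at estrus differs from that of a full sister without recorded estrus. No gene of the 31 passed the quasi-likelihood test of edgeR at an adjusted p (Benjamini-Hochberg, over all tested loci) under 0.05, beside 0.152% of all tested loci called higher in ES and 0.793% called lower. SRXN1 came nearest (adjusted p = 0.0673). At an unadjusted p under 0.05, 4 of the 31 were higher in ES (12.9%, against 9.5% of all tested loci) and none was lower, against 6.79% of all tested loci, so that the share called higher is near that of all loci. DESeq2 called 1 of the 31, SRXN1, and limma on log2(FPKM + 0.5) called none. DESeq2 also called more of all tested loci than edgeR did, with the counts given in the last section. At an unadjusted p under 0.05 it gave 3 of the 31 higher, beside 9.77% of all tested loci. With limma 2 of the 31 were higher (beside 3.31% of all tested loci) and 3 lower at an unadjusted p under 0.05, and 13 had a positive and 18 a negative difference. In that fit the median log2 difference, ES minus NES, was -0.052 over the 31 genes and -0.051 over all tested loci. Without ES6, edgeR gave 4 higher (beside 9.45% of all tested loci) and 3 lower at that p. For the lower genes of these fits the share of all loci is not given here. In the edgeR fit of all 12 libraries the median log2 difference was 0.055 over the 31 genes and 0.043 over all tested loci. In all, 19 genes had a positive and 12 a negative difference, where 56.2% of all tested loci had a positive one, and without ES3 the counts were 15 and 16. SRXN1 and SOD3 had all 6 ES values above the whole NES range, as had 0.509% of all tested loci, and no gene had all 6 below it, as had 0.906%.

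**Figure D3:**
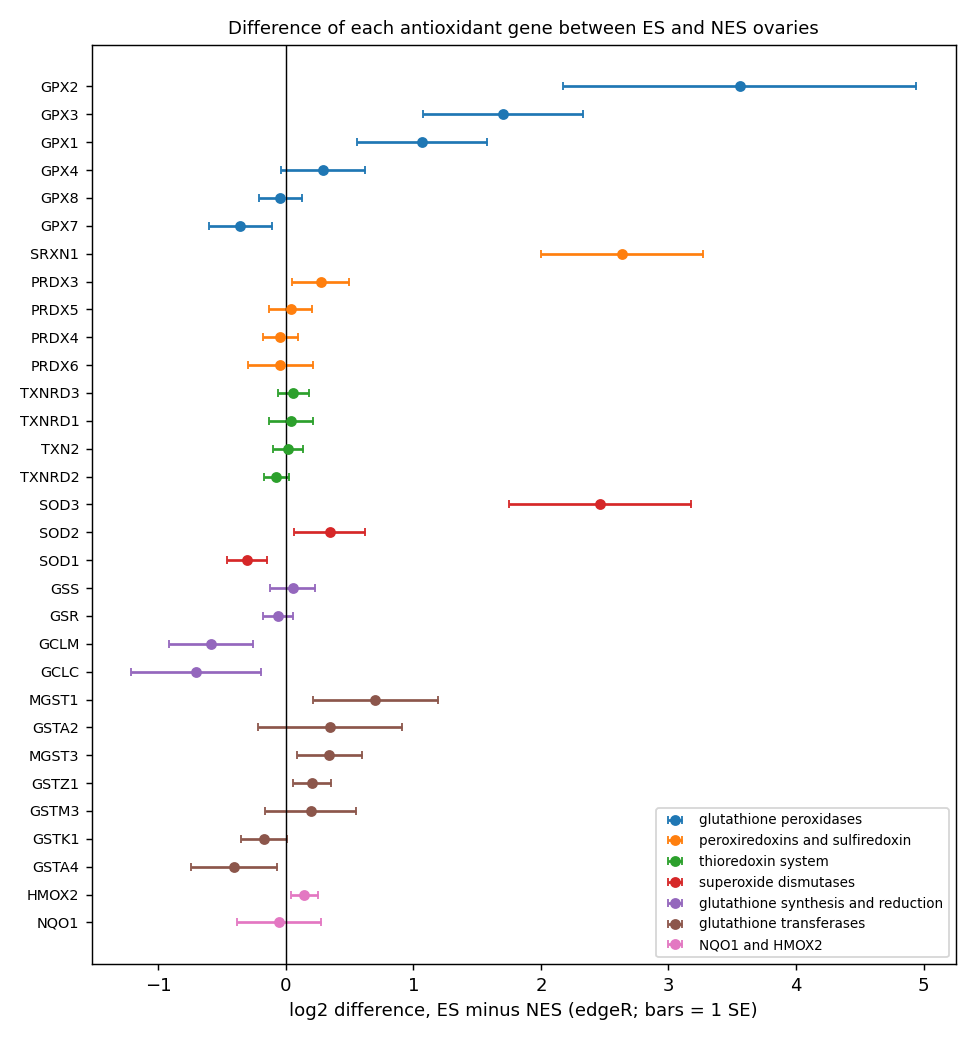
The log2 difference, ES minus NES, of each of the 31 genes by edgeR with bars of 1 SE, grouped and coloured by role. SRXN1 (2.64), SOD3 (2.46), GPX2 (3.56), GPX3 (1.70) and GPX1 (1.07) lie furthest to the right with wide bars, and the 4 genes of the thioredoxin system lie between -0.074 and 0.059.

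SRXN1 encodes sulfiredoxin, the enzyme that reactivates overoxidized peroxiredoxins (MSTRG.10331, chromosome 17, 34582410 to 34589300, build Sscrofa11.1). It had 107, 7.32, 42.1, 16.9, 7.56 and 13.3 CPM in ES1 to ES6, against 5.67, 5.92, 3.63, 3.52, 6.74 and 5.77 CPM in NES1 to NES6. The groups did not overlap, although ES2 and ES5 lay close above the highest NES library, NES5. The mean was 32.4 ± 38.9 CPM in ES gilts and 5.21 ± 1.32 CPM in NES sisters, a log2 difference of 2.64 ± 0.63 (SE; edgeR adjusted p = 0.0673). ES1 held the highest value, and leaving it out gave 1.74 (adjusted p = 0.0792). The luteal sum was highest in ES1 (8631 CPM) and lowest in ES3 (652 CPM), which was second in SRXN1. ES6, second in luteal sum, had 13.3 CPM of SRXN1. Within that list PTGFR (181 CPM) and CYP11A1 (194 CPM) lay above every NES library in ES3, and SCARB1 (201 CPM) within the NES range. STAR, CYP17A1, INHA, CYP19A1 and FDX1 lay below every NES library there, INHA with 10.7 CPM. The sum therefore does not stand for each marker. The part of luteal cells in SRXN1 was not tested. Leaving out ES1, ES3 and ES6 together gave 1.02 (adjusted p = 0.177). DESeq2 gave an adjusted p of 3.69e-04, while over all 23 alternatives the adjusted p ran from that value to 0.244 and only DESeq2 called the gene.

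The 4 measured peroxiredoxins, enzymes that reduce peroxides through a cysteine, had log2 differences of -0.04 to 0.27. PRDX3 had 60.0 to 138 CPM (median 79.3) in ES gilts and 59.3 to 106 CPM (median 70.5) in NES sisters, with a log2 difference of 0.27 ± 0.22, and of 0.13 without ES6 and 0.14 without ES1. PRDX4, the peroxiredoxin of the endoplasmic reticulum, had 23.9 to 36.0 CPM in ES gilts and 23.9 to 37.9 CPM in NES sisters (log2 -0.04 ± 0.14). PRDX5, found in mitochondria and peroxisomes, had 5.48 to 9.46 CPM in ES gilts and 5.81 to 8.66 CPM in NES sisters (log2 0.04 ± 0.17). PRDX6, which works with glutathione and also cleaves phospholipids, had 20.4 to 55.5 CPM in ES gilts and 26.6 to 51.8 CPM in NES sisters (log2 -0.04 ± 0.26). All 4 overlapped between the groups, with edgeR adjusted p of 0.581 to 0.955.

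The 4 measured genes of the thioredoxin system, which do not include TXN, differed by less than their spread between ovaries, and the groups overlapped for each. TXN2, the mitochondrial thioredoxin, had 21.3 to 33.0 CPM in ES gilts and 25.2 to 30.7 CPM in NES sisters (log2 0.02 ± 0.11). The reductases that recharge thioredoxin in the cytosol (TXNRD1, 0.04 ± 0.17), in mitochondria (TXNRD2, -0.07 ± 0.10) and the related TXNRD3 (0.06 ± 0.12) had log2 differences as small. TXNRD1 was highest in ES1 (110.2 CPM) and ES3 (108 CPM), and NES1 had 105 CPM. None of the 4 passed (edgeR adjusted p = 0.749 to 0.961).

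The 3 superoxide dismutases had log2 differences of -0.30 to 2.46. SOD3, the extracellular form bound to the matrix (MSTRG.22060, chromosome 8, 18796636 to 18804064), had 15.5, 16.7, 178, 14.4, 14.2 and 13.1 CPM in ES1 to ES6, against 7.06, 11.8, 5.79, 3.94, 9.76 and 7.33 CPM in NES1 to NES6. All 6 ES libraries lay above the highest NES library, and 5 of them within a narrow band, while ES3, the library with the macrophage marker sum of 1137 CPM, stood far above that band. The log2 difference was 2.46 ± 0.71 (edgeR adjusted p = 0.121), and 0.95 without ES3 (adjusted p = 0.0827). No alternative called it, and where an alternative gave an adjusted p this was 0.0827 to 0.326. For SOD3 and GPX2, DESeq2 gave none. SOD2, the manganese enzyme of mitochondria, had 27.7 to 91.1 CPM in ES gilts and 25.6 to 38.7 CPM in NES sisters. Its difference of 0.34 ± 0.28 rested on ES3, and without that library it was -0.04. SOD1, the copper and zinc enzyme of the cytosol, was measured on a row made only of assembled transcripts. It had a lowest, median and highest value of 5.09, 6.95 and 8.57 CPM in ES gilts and 7.15, 8.08 and 10.7 CPM in NES sisters (log2 -0.30 ± 0.16, edgeR adjusted p = 0.363), with 3 ES libraries below every NES library.

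**Figure D4:**
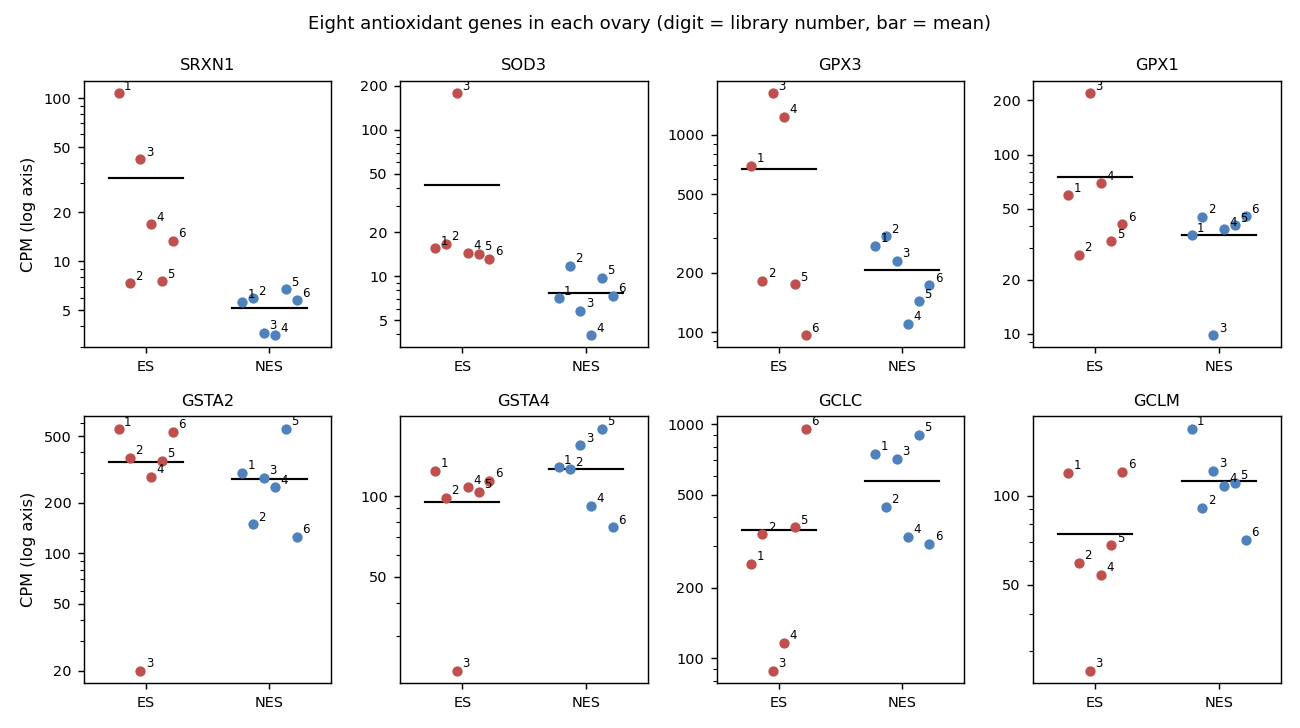
CPM of 8 antioxidant genes in each library (log axis), with ES left of NES; each point is a library with its number and the bar is the group mean. SRXN1 and SOD3 do not overlap between the groups, and ES3 is highest for SOD3, GPX3 and GPX1 (178, 1629 and 220 CPM) and lowest for GSTA2, GSTA4, GCLC and GCLM (19.9, 22.2, 88.3 and 25.7 CPM).

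Among the glutathione peroxidases 4 had positive and 2 negative differences. GPX3 (MSTRG.9964, chromosome 16, 71980468 to 71989011) had 699, 182, 1629, 1235, 175 and 96.2 CPM in ES1 to ES6, against 273, 306, 230.3, 110.5, 143 and 172 CPM in NES1 to NES6. ES1, ES3 and ES4 lay above every NES library and ES6 below every one, so the ES ovaries lay on both sides of the NES range. The log2 difference was 1.70 ± 0.63 (edgeR adjusted p = 0.214), and 1.204 without ES3. A row on the opposite strand that carries the same name (MSTRG.9965) differed by 0.71. GPX1 (MSTRG.5326, chromosome 13, 31916246 to 31917433) had 59.4, 27.6, 220, 69.1, 32.8 and 40.9 CPM in ES1 to ES6, against 35.4, 44.95, 9.83, 38.4, 40.4 and 45.3 CPM in NES1 to NES6. ES1, ES3 and ES4 lay above every NES library, with ES3 far above and NES3 far below the rest of its group. The log2 difference of 1.07 ± 0.51 (edgeR adjusted p = 0.319) was 0.36 without ES3.

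GPX2, the peroxidase of epithelia (MSTRG.21536, chromosome 7, 89007370 to 89011620), was measured at low counts except in ES6. It had 0, 19, 37, 35, 16 and 1773 reads in ES1 to ES6, against 9, 20, 22, 39, 50 and 21 reads in NES1 to NES6. The 0 in ES1 allows up to 0.0519 CPM, for counting error only. ES6, the library in which all 5 epithelial markers were highest, set the log2 difference of 3.56 ± 1.38 (edgeR adjusted p = 0.234), which was -0.26 without it. GPX4, which reduces lipid peroxides in membranes, had 1.39 to 6.52 CPM in ES gilts and 1.92 to 3.29 CPM in NES sisters (log2 0.29 ± 0.33, and -0.13 without ES3). GPX7 and GPX8, peroxidases of the endoplasmic reticulum, differed by -0.36 ± 0.25 and -0.04 ± 0.17. GPX7 had 8.46 to 23.4 CPM (median 13.1) in ES gilts and 11.8 to 23.1 CPM (median 19.1) in NES sisters, and GPX8 14.1 to 30.6 CPM in ES gilts and 20.3 to 24.9 CPM in NES sisters.

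Glutathione is made by glutamate cysteine ligase, with the catalytic subunit GCLC and the modifier subunit GCLM, and by glutathione synthetase, GSS. GCLC (MSTRG.20652, chromosome 7, 27209565 to 27253530) had 253, 338, 88.3, 117, 362 and 957 CPM in ES1 to ES6, against 746, 443, 710.1, 329, 901 and 308 CPM in NES1 to NES6. ES1, ES3 and ES4 lay below every NES library and ES6 above every one. The log2 difference was -0.70 ± 0.51 (edgeR adjusted p = 0.527), and -1.31 without ES6 (adjusted p = 0.166). The granulosa marker sum was 438 CPM in ES3, 433 CPM in ES4, 2796 CPM in ES6 and 1888 CPM in ES1, the last above 5 of the 6 NES libraries. In ES6 the sum was mostly CYP19A1 (1040 CPM) and INHBA (928 CPM). IHH (5.38 CPM), FST (32.2 CPM), FSHR (13.9 CPM) and INHBB (124 CPM) lay below every NES library there. The part of granulosa cells in GCLC was not tested. GCLM (MSTRG.16328, chromosome 4, 123371132 to 123379269) had 119.6, 59.3, 25.7, 54.1, 68.1 and 120.1 CPM in ES1 to ES6, against 168, 90.8, 121, 108, 110.3 and 71.0 CPM in NES1 to NES6. ES2, ES3, ES4 and ES5 were below every NES library, and ES1 and ES6 within the NES range. Its log2 difference was -0.58 ± 0.33 (edgeR adjusted p = 0.404), and -0.41 without ES3. The ratio of GCLC to GCLM in FPKM varied over a like span in both groups, 1.35 to 5.10 in ES and 1.95 to 5.22 in NES sisters. GSS had 9.78 to 17.8 CPM in ES gilts and 10.3 to 15.2 CPM in NES sisters (log2 0.05 ± 0.17). The reductase that regenerates glutathione, GSR, had 37.8 to 55.1 CPM in ES gilts and 37.6 to 51.6 CPM in NES sisters (log2 -0.06 ± 0.12).

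Of the 7 glutathione transferases 5 had positive and 2 negative differences, and none passed (edgeR adjusted p = 0.506 to 0.832). GSTA2 (MSTRG.20941, chromosome 7, 46538613 to 46588219), of the alpha class that is abundant in steroid-making cells, had 549.8, 371, 19.9, 286, 357 and 531 CPM in ES1 to ES6, against 303, 149, 282, 247, 555 and 126 CPM in NES1 to NES6. Every ES library but ES3 stood within the NES range, and ES3 was far below it. The log2 difference was 0.35 ± 0.56, and 0.60 without ES3. Leaving out any 1 library gave 0.16 (without ES1) to 0.67 (without NES5), with 0.19 without ES6, 0.22 without NES2 and 0.20 without NES6. The row spans a cluster of near-identical alpha-class genes, so its reads cannot be given to GSTA2 alone. Its neighbour GSTA4 (MSTRG.20939, chromosome 7, 46635904 to 46656497) had 124, 98.6, 22.2, 108, 104 and 114 CPM in ES1 to ES6, against 128, 126, 155, 91.8, 179 and 76.4 CPM in NES1 to NES6. Again ES3 alone was below every NES library (log2 -0.40 ± 0.34, and -0.20 without ES3). GSTM3, a mu-class enzyme, also had its lowest value in ES3, with 1.29 to 8.62 CPM in ES gilts and 3.55 to 7.71 CPM in NES sisters (log2 0.20 ± 0.36, and 0.40 without ES3).

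MGST1, a transferase of microsomal and outer mitochondrial membranes, had a lowest, median and highest value of 29.4, 75.4 and 273 CPM in ES gilts and 38.5, 46.0 and 95.0 CPM in NES sisters. ES6 was far above and ES3 and ES4 below every NES library, and the log2 difference of 0.70 ± 0.49 was 0.03 without ES6. MGST3, a relative in the same membrane family, had 6.54 to 19.2 CPM in ES gilts and 6.19 to 10.5 CPM in NES sisters (log2 0.34 ± 0.25, and 0.12 without ES3). GSTZ1, which acts in tyrosine breakdown, had 11.6 to 20.3 CPM (median 13.8) in ES gilts and 10.3 to 15.2 CPM (median 12.5) in NES sisters (log2 0.21 ± 0.15, and 0.091 without ES6). The groups overlapped. GSTK1, the mitochondrial and peroxisomal form, differed by -0.17 ± 0.18. NQO1, the quinone reductase often used as a readout of NRF2, had 5.29 to 27.9 CPM in ES, highest in ES1 and lowest in ES3, and 10.6 to 17.5 CPM in NES sisters (log2 -0.05 ± 0.33). HMOX2, the constitutive heme oxygenase, had 38.3 to 53.6 CPM (median 43.4) in ES gilts and 36.1 to 44.4 CPM (median 40.8) in NES sisters (log2 0.15 ± 0.10, edgeR adjusted p = 0.513).

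The coefficient of variation between ovaries was larger in ES than in NES for 27 of the 31 genes (87.1%), and for 74.6% of all tested loci. ES3 held the highest value of the 12 libraries for 10 genes and the lowest for 9, beside 19.7 and 18.9% of all tested loci. The 10 genes highest in ES3 were SOD2, SOD3, GPX1, GPX3, GPX4, MGST3, GSR, GSS, PRDX6 and TXN2. The 9 lowest there were GCLC, GCLM, GSTA2, GSTA4, GSTM3, MGST1, GPX7, PRDX5 and NQO1. ES1 was highest for SRXN1, NQO1, TXNRD1, HMOX2, PRDX5 and GPX7, and ES6 for GPX2, MGST1, GCLC, PRDX3, GSTZ1 and GPX8.

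**Figure D5:**
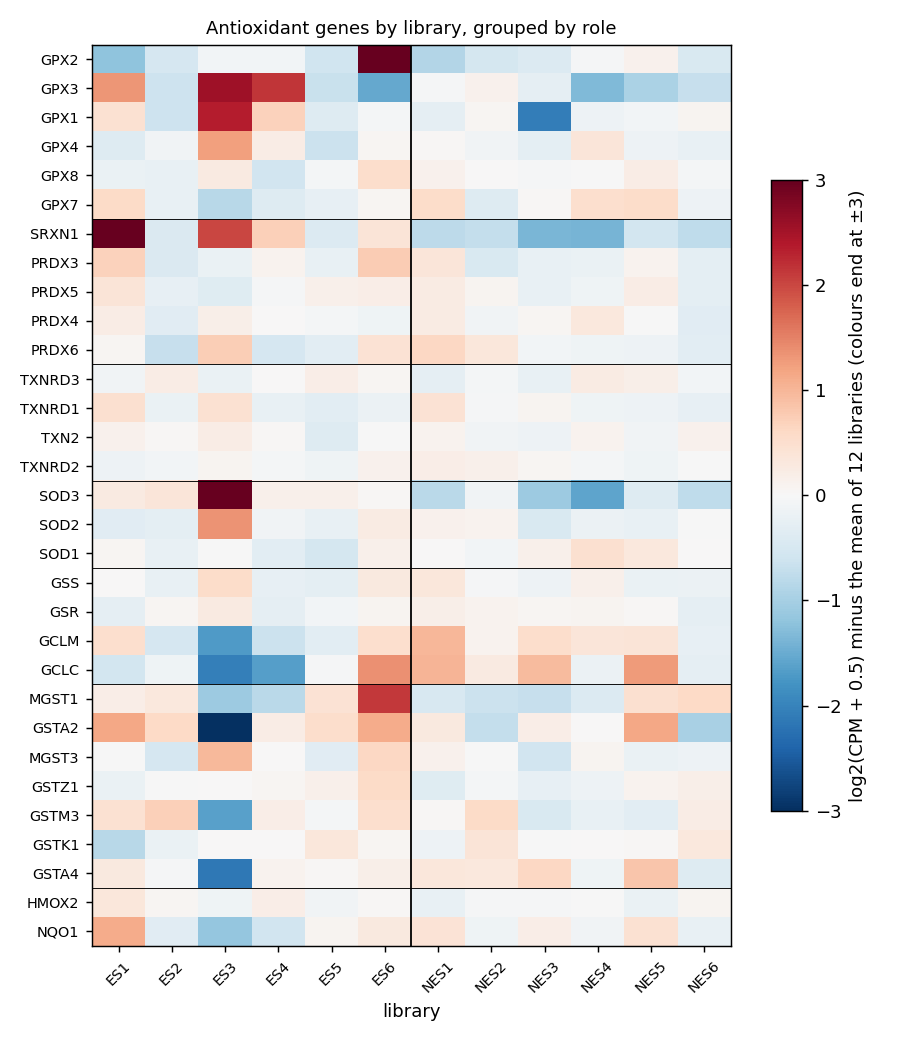
Level of the 31 genes in each library as log2(CPM + 0.5) minus the mean of the 12 libraries, grouped by role, with the 6 ES libraries left of the 6 NES libraries. ES3 is highest for 10 genes and lowest for 9, and the 4 thioredoxin genes stay pale in all libraries.

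Further genes of the pathway were taken from 5 lists. Of 12 measured genes of glutathione supply and turnover, 3 were higher at an unadjusted p under 0.05 (beside 9.5% of all tested loci) and none passed over all loci (median log2 0.09). CHAC1, which degrades glutathione in the cytosol, had a mean of 11.5 ± 13.5 CPM in ES gilts and 1.75 ± 1.24 CPM in NES sisters (log2 2.71 ± 0.71, edgeR adjusted p = 0.0898). ANPEP, the surface aminopeptidase that cuts the products of glutathione breakdown, had a mean of 32.0 ± 12.2 CPM in ES gilts and 11.12 ± 7.22 CPM in NES sisters (log2 1.52 ± 0.38, edgeR adjusted p = 0.0766). OPLAH, which returns oxoproline to glutamate, differed by 0.66 and the esterase ESD by 0.31. CHAC1 and ANPEP were called by DESeq2 and in the fit without NES6, and in none of the other 14 of 16 alternatives, and CHAC1 differed by 1.80 without ES6.

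Of 22 measured NRF2 regulators and further NRF2 targets, 19 had positive differences and 9 an unadjusted p under 0.05, all of them higher, against 9.5% of all tested loci. None passed with edgeR over all loci, and the list's median log2 difference was 0.30. Without ES3 the count of 9 was 4 and without ES1 it was 5, beside 8.11 and 9.18% of all tested loci. Leaving out an NES library gave 5 to 8, with 5 without NES3 or NES5 (7.07 and 7.47% of all tested loci). With the 3 libraries ES1, ES3 and ES6 left out together it was 3, beside 6.59% of all tested loci. With limma on log2(FPKM + 0.5) 3 were higher and 1 lower, where 3.31% of all tested loci were higher. OSGIN1, an oxidative stress response gene, had a mean of 20.5 ± 28.2 CPM in ES gilts and 2.22 ± 1.19 CPM in NES sisters (log2 3.21 ± 0.83, edgeR adjusted p = 0.0862, and log2 2.14 without ES1). SQSTM1, the autophagy receptor that binds KEAP1, had a mean of 176 ± 67.9 CPM in ES gilts and 105 ± 14.4 CPM in NES sisters (log2 0.75 ± 0.22, edgeR adjusted p = 0.126). DESeq2 called OSGIN1 (DESeq2 adjusted p = 4.63e-04) and SQSTM1 (DESeq2 adjusted p = 0.0352). Each was called in only this 1 of 16 alternatives. The biliverdin reductase BLVRB differed by 0.67 and the NRF2 competitor BACH1 by 0.69, and these were 0.39 and 0.34 with ES3 left out.

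Of 24 measured glutaredoxins, thioredoxin partners and other redox repair enzymes, 2 were higher at an unadjusted p under 0.05, a share no larger than the 9.5% of all tested loci, and none passed (median log2 0.12). That count was 0 without ES1, ES3, NES1, NES2 or NES3, and 1 without NES6. SELENOS and SELENOM, selenoproteins of the endoplasmic reticulum, differed by 0.70 and 0.61, and by 0.31 and 0.13 without ES3. The methionine sulfoxide reductase MSRB3 differed by 0.55 (0.34 without ES3) and the glutaredoxin GLRX3 by -0.16. Of 11 measured enzymes that produce oxidants, MAOB rose, and 4 were higher and 1 lower at an unadjusted p under 0.05, beside 9.5 and 6.79% of all tested loci (median log2 0.58, and 0.22 without ES3). MAOB, the monoamine oxidase that releases hydrogen peroxide, had a mean of 27.0 ± 8.76 CPM in ES gilts and 12.3 ± 3.37 CPM in NES sisters (log2 1.13 ± 0.24, edgeR adjusted p = 0.0479), and 3 of 16 alternatives called it (DESeq2, limma and the fit without NES6; adjusted p over all 16 of 6.37e-04 to 0.191). RAC2, a small GTPase that activates the NADPH oxidase of blood cells, differed by 0.86, and by 0.52 without ES3. The aldehyde oxidase AOX1 differed by 0.58 (0.38 without ES1) and the inducible nitric oxide synthase NOS2 by -0.61. Of 7 other genes of the transferase fold or membrane family, none passed. GSTCD, a transferase-like gene, differed by -0.64 and the channel protein CLIC5 by 0.33. PTGES, which makes prostaglandin E, differed by 1.01 (0.66 without ES6 and 1.25 without ES3). ALOX5AP differed by 0.88 (0.36 without ES3).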

How the data were processed

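The table the authors deposited gives whole-number counts and FPKM values for each locus and library, per the file headers. The deposited FPKM values correct the counts for length and depth. Per the labels' protocols, Trizol RNA from whole ovaries lost its ribosomal RNA before dUTP strand-specific library construction. Tools listed in the submitters' processing notes are HISAT2, TopHat, cutadapt and FastQC, and the build listed is Sscrofa11.1. For the counting program, strand setting and annotation, the answer is not given in the sources used here.

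Where a symbol had several rows (6 symbols), the row with the highest mean count was used. Counts went into edgeR's quasi-likelihood test (TMM factors, group only) for the 20421 loci whose FPKM averaged 0.5 or more. P-values were adjusted over these loci (Benjamini-Hochberg) and called under 0.05. Each SE was taken as the log2 difference over the square root of F. CPM uses TMM factors, and SDs are over the 6 libraries of a group. All 31 members were named, and from each list the called genes plus up to 4 with the smallest p-values, except 1 gene that is not reported here. List genes came from rows with a single name. The members and lists were chosen with earlier results of these data known.

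Alternatives were RLE factors, DESeq2, limma on log2(FPKM + 0.1, 0.5 or 1), no filter, a minimum FPKM of 1, a replicate block, each library left out and other choices of row. The fit without ES1, ES3 and ES6 was added after the data were seen. Fits were tested on simulated counts. Tests ran in R 4.3.3, with DESeq2 1.42.0, limma 3.58.1 and edgeR 4.0.16. Tables and plots came from Python 3.11.15, using numpy 2.4.6, matplotlib 3.10.9 and pandas 2.3.3.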

Additional observations from a re-analysis of the deposited data

Results flagged for a closer look

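In 19 of 110 sets of 6 libraries (a gene or marker sum within ES or within NES), the highest or lowest library lay further from its nearest neighbour than Dixon's limit for 6 samples allows. Chance gives this in about 1 of 20 sets of normally distributed values. The ratios were taken on CPM without logs, and the sets hold list genes chosen by p-value. The count of 19 can therefore not be read against that rate. Of the 19 flagged libraries, 16 lay in ES, 10 of them in ES3 and 5 in ES6, and 3 in NES. ES3 was high for SOD3 (178 CPM, next 16.7), GPX1 (220 CPM, next 69.1), SOD2 (91.1 CPM, next 41.9) and GPX4 (6.52 CPM, next 2.96), and low for GSTA4 (22.2 CPM, next 98.6). ES3 was also high for BLVRB (10.4 CPM), SELENOS (30.3 CPM), SELENOM (50.7 CPM), ALOX5AP (3.95 CPM) and the summed macrophage markers (1137 CPM, next 158). ES6 was high for GPX2 (28.2 CPM, next 0.59), MGST1 (273 CPM, next 85.6), GCLC (957 CPM, next 362), CHAC1 (38.1 CPM, next 10.2) and the summed epithelial markers (232 CPM, next 15.9). ES1 was high for SRXN1 (107 CPM, next 42.1). In the NES group, NES3 was low for GPX1 (9.83 CPM, next 35.4), and NES6 low for GSR (37.6 CPM, next 46.8) and high for CHAC1 (4.23 CPM, next 1.63).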

How the results depend on the processing

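Each of the 31 genes was recomputed under 23 alternatives, giving 713 values. Of these, 654 kept direction and side of the threshold, 58 changed sign without a call and 1 became called (SRXN1 under DESeq2, so 1 gene called higher). Among all tested loci, 31 were called higher and 162 lower, against 465 and 600 with DESeq2, 315 lower with limma on log2(FPKM + 0.5), 310 lower with a pseudocount of 0.1, 19 higher and 300 lower with a pseudocount of 1, and 3 and 25 with no filter. Leaving out 1 library gave 0 to 70 higher and 0 to 345 lower, with 0 of each without ES2 and the most without NES6. Leaving out ES1, ES3 and ES6 together, chosen after seeing the data, gave 3 higher and 0 lower and moved the median log2 difference of the 31 genes to -0.11. At an unadjusted p under 0.05, 3 of the 31 genes were then higher, beside 6.59% of all tested loci, and 6 lower. The share of all loci that were lower in that fit is not given here, so the 6 cannot be set against it. Leaving out 1 library gave medians of -0.03 to 0.12 and 0 genes called. With the replicate block, 0 loci were called higher and 0 lower, the median of the 31 genes was 0.03, and 2 of the 31 and 3 of the 22 NRF2 list genes were higher at an unadjusted p under 0.05 (5.86% of all tested loci). Same-numbered libraries had correlations of deviations of -0.07 to 0.29, and 2 of 6 correlated best with their own number. These values cannot decide whether the numbers mark sisters, and no source used here states it. The main fit therefore leaves litter out, which limits its p-values. Under limma with pseudocounts of 0.5, 0.1 and 1 the log2 differences were -0.052, -0.058 and -0.045 for GSS, -0.058, -0.062 and -0.054 for PRDX5, -0.071, -0.079 and -0.062 for TXN2, -0.061, -0.070 and -0.052 for TXNRD1, and -0.022, -0.026 and -0.018 for TXNRD3. With 0.5 and 0.1 they were -0.012 and -0.043 for GSTM3, and with 0.1 it was -0.055 for GSTA2. With 0.5 the median over all tested loci was -0.051, against 0.043 in the main fit, so the median of all loci changed sign as well. The GSR row with the highest FPKM gave 0.14. Without ES1, ES3 and ES6 the values were -0.10 for GPX2, -0.12 for GPX4, -0.26 for GSS, -0.17 for MGST3, -0.086 for PRDX3, -0.042 for PRDX5, -0.11 for SOD2, -0.098 for TXN2 and -0.25 for TXNRD1. With 1 library left out, the range was -0.26 to 3.82 for GPX2, -0.13 to 0.43 for GPX4, -0.18 to 0.051 for GPX8, -0.080 to 0.13 for GSS, -0.42 to 0.11 for NQO1, -0.11 to 0.019 for PRDX4, -0.055 to 0.11 for PRDX5, -0.23 to 0.10 for PRDX6, -0.043 to 0.44 for SOD2, -0.035 to 0.088 for TXN2 and -0.071 to 0.14 for TXNRD1. The causes of these differences were not tested. Depth limits GPX2 most among the 31 genes, with 0 counts in 1 library.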
